A study of Mus musculus with 24 samples.

Results

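The genes described here are 9 genes by which the sinusoidal endothelium of the liver is recognised, namely Stab1, Stab2, Mrc1, Fcgr2b, Clec4g, Cd209b, Oit3, Gata4 and Maf. They were taken as a list of names, and all 9 of them are among the 22282 genes of the series. LSECs line the blood channels of the liver, are fenestrated, and clear waste macromolecules from the blood by receptor-mediated endocytosis. Scavenger receptors of the stabilin family, the mannose receptor and the inhibitory Fc receptor bind modified proteins, glycoproteins and immune complexes at their surface, while C-type lectins recognise sugars. GATA4 and c-Maf are transcription factors that act in liver endothelium, and c-Maf also acts in macrophages.

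RNA sequencing was available for 24 libraries, 3 in each of 8 groups, all from C57BL/6J mice. MACs were amniotic cells of mid-gestation embryos aged E11.5 to E13.5, and Akt-MACs were MACs given a lentivirus with myristoylated Akt. RACVECs were MACs transduced with the Ets factors Etv2, Erg and Fli1 under a PGK promoter and kept in endothelial medium with VEGF-A and the TGF-β inhibitor SB431542. The data header of a RACVEC library named a culture day other than that of the methods, so the time in culture is uncertain. Akt-RACVECs carried myristoylated Akt in addition, and Sox17-RACVECs carried Sox17 in addition and were selected with puromycin. Akt-LECs and Akt-liver ECs were adult lung and adult liver ECs caught with CD31 beads, propagated with myristoylated Akt1 and sorted again for VEcad and CD31. LSECs were liver ECs that were sorted directly after labelling in the living animal with an antibody to VEcad and with isolectin, without culture. LSECs therefore differed from Akt-liver ECs in the sort, in culture and in Akt at once, and these cannot be told apart. The MAC libraries were separate isolations that mixed embryos. The libraries are described as individual isolates. Whether the isolates of the other groups came from separate animals or cultures was not found in the sources used here, so p-values measure only the spread between libraries.

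Values are FPKM, fragments scaled to transcript length and library, summed over the RefSeq transcripts of a gene. The number of reads per library is not known, so an FPKM of 0 is given as listed at 0. Summed FPKM per library was between 1689486 and 2317294, and between 12356 and 14985 genes were above 0. Differences between groups are on the log2(FPKM + 1) scale, which understates the change of genes near 0. A gene was called where limma gave an adjusted p below 0.05 and a difference past 1 or -1, with adjustment over the 14964 genes whose mean FPKM was at least 1. All 9 genes passed that filter, but Cd209b and Clec4g, with means of 0 and 0.649 FPKM over the libraries outside LSECs, passed it through the LSECs alone. Their calls in comparisons with LSECs were therefore fixed by the filter, and counts of calls are given also for the other 7 genes.

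Some libraries stood apart. The summed FPKM of 12 macrophage and Kupffer cell genes was between 17845 and 29725 in LSECs, where all 12 were above 0. It was 1019.7, 16029 and 48587 in the 3 Akt-MAC libraries. In Akt-liver ECs this sum was 1375, 2.19 and 0, and in Akt-LECs it was 1770, 2.09 and 18.6, so the first library of each group held the most. Hepatocyte genes summed to between 2870 and 16519 in LSECs and to at most 58.8 elsewhere. Red blood cell genes summed to between 10275 and 10897 in LSECs and to at most 70.9 elsewhere. Of the 8 stellate cell and fibroblast genes, all were above 0 in LSECs, with sums between 659.5 and 1321 against 242 to 1154 in Akt-liver ECs. The 7 B cell and dendritic cell genes summed to between 80.2 and 105 in LSECs. The 10 pan-endothelial genes summed to between 23768 and 25965 in LSECs, 10742 and 20468 in Akt-liver ECs, 7343 and 16691 in Akt-LECs, 14341 and 23331 in Akt-RACVECs, and 2541 and 5442 in RACVECs. The library labelled Sox17-RACVEC 2 listed Etv2 at 0, against 458 and 378 in the others of its group, and held Erg at 387, against 4.49 and 0. It also had the highest pan-endothelial sum of its group, 18429 against 7680.5 and 6902. Other transferred genes were uneven too. Sox17 was at 5.09, 40.1 and 200.1 FPKM in Sox17-RACVECs, so that the first of these held less than every Akt-RACVEC library (12.01 to 83.5), and Erg was at 3.91, 13.8 and 0.90 in RACVECs, against 395 to 1002 in Akt-RACVECs.

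Most of these genes were highest in LSECs. Of the 9 genes, 8 had all 3 LSEC libraries above all other 21 libraries, against 9.64% of the 14964 genes tested. The exception was Stab1. Without Cd209b and Clec4g this held for 6 of 7, against 7.52% of the 14496 genes that reach the filter outside LSECs too. Compared with Akt-liver ECs, from the same organ, 6 of the 9 genes were called higher in LSECs and 0 lower, where 12.9% of all genes were called higher and 14.1% lower. Of the 7 genes that did not depend on LSECs to be tested, 4 were called higher, against 10.6% of the 14496 such genes. In these bulk samples, fewer cells of a type and less RNA per cell cannot be told apart. The 6 genes were Stab2, Mrc1, Fcgr2b, Clec4g, Cd209b and Oit3. All 3 LSEC libraries lay above all 3 Akt-liver EC libraries for 8 of the 9 genes, against 24.9% of all genes. That count includes Cd209b and Clec4g, which were tested through the LSECs alone. The median difference over the 8 genes above 0 in any Akt-liver EC library was 6.30 on the log2(FPKM + 1) scale, against -0.084 over all genes tested. Clec4g, at 13.21 and tested through the LSECs alone, is part of that median.

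**Figure D1:**
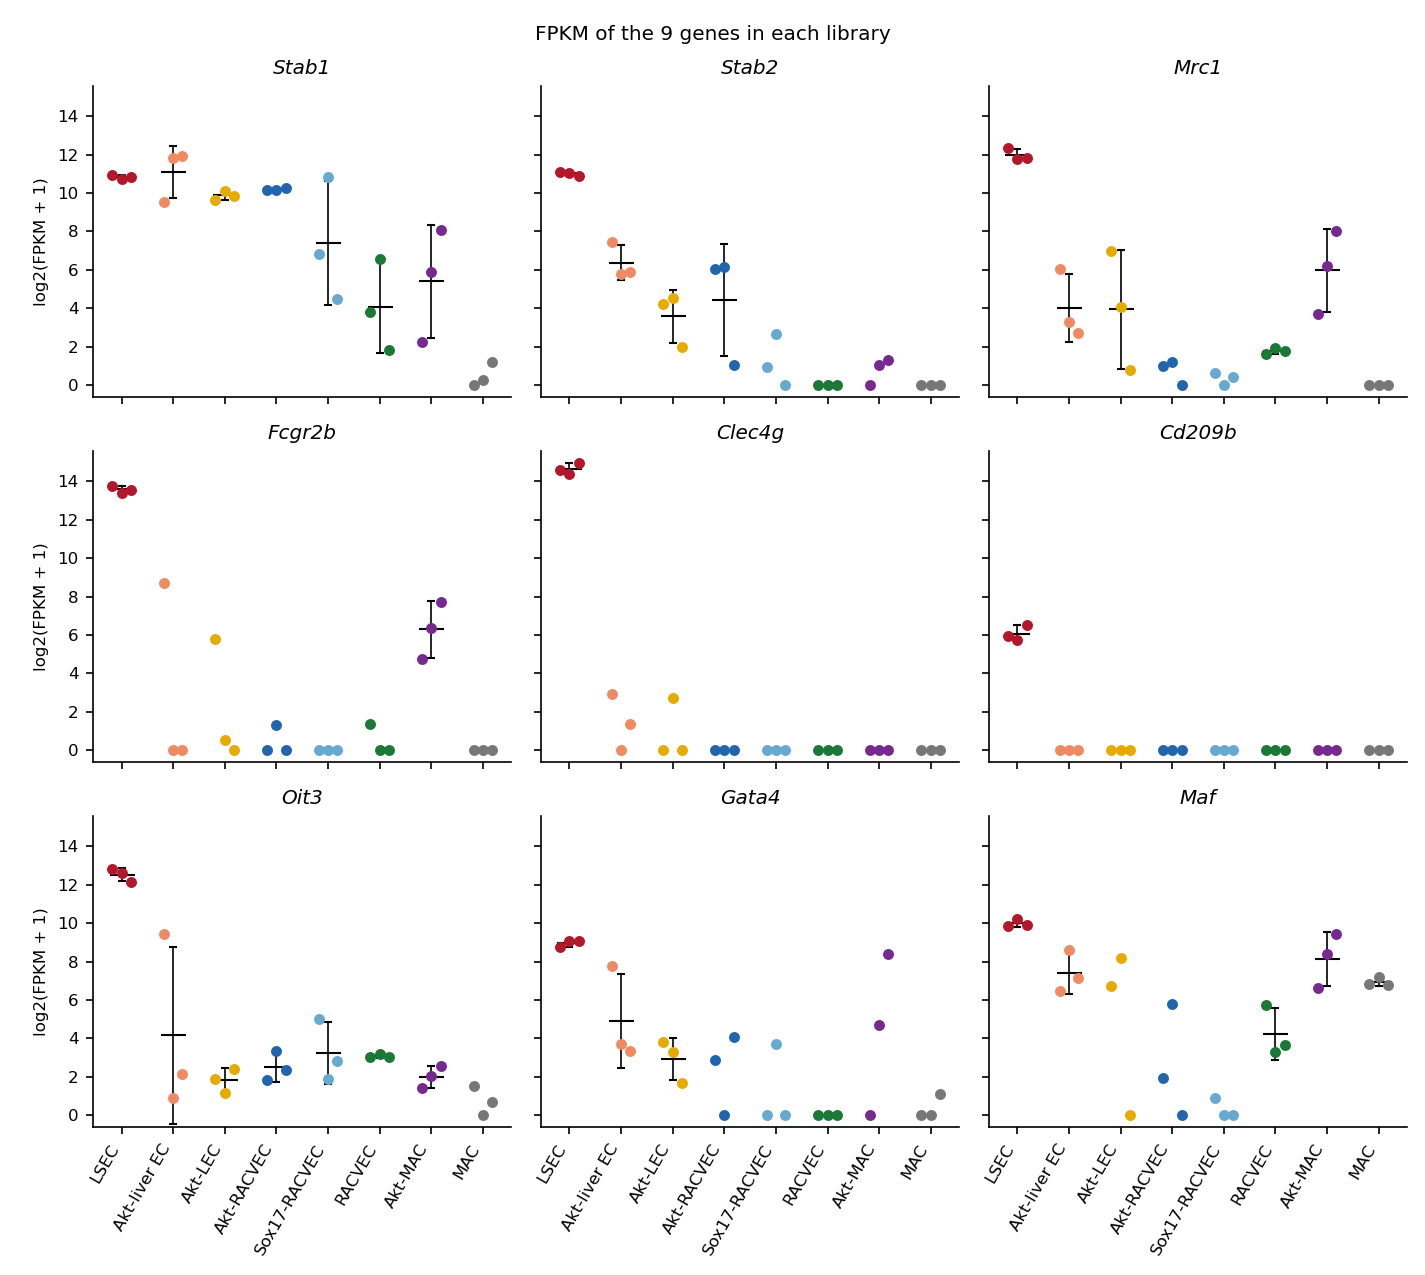
Level of each of the 9 genes in the 24 libraries, as log2(FPKM + 1) on the vertical axis, with the 8 groups on the horizontal axis. Points are libraries, and the bar with whiskers is the mean ± SD of the 3 log2 values, drawn only where no library is at 0. The 3 LSEC libraries are above all others for every gene except Stab1, and Cd209b is above 0 in LSECs alone. For Stab1, 2 Akt-liver EC libraries are higher still, and Sox17-RACVEC 2 is above LSEC 2 and LSEC 3.

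The promoters of the receptor and lectin genes were set side by side because the converted cells were made with 3 Ets factors. RefSeq sequence of GRCm38.p6 held an entry for 6 of the 9 genes, not for Oit3, Gata4 and Maf. The letters AGGAAG or CGGAAG, which hold the core of Ets binding sites, were searched on both strands in the 250 bases before the start. They were found in 5 of the 6 genes (all but Fcgr2b), and in 39.0% of 27025 promoters of that length. The forms that end in A, AGGAAA and CGGAAA, were not searched. AGGAAA can be read in the Fcgr2b window, which is not shown, and in the Stab1, Stab2 and Clec4g windows below. The GATA letters AGATAA or TGATAA were in 0 of the 6 and in 17.0% of all promoters. The forms that end in G, AGATAG and TGATAG, were not searched, and AGATAG can be read in the Clec4g and Cd209b windows below. TGCTGA, part of the Maf recognition element, was in 1 of the 6, Stab1, and in 15.8% of all. The Sox letters ACAAT were in 2 of the 6, Fcgr2b and Clec4g, and in 28.3% of all. Such matches describe the letters of these windows and not binding. The upstream windows of the stabilins, whose levels parted from each other in the cultured cells, and of the 2 lectins, which were nearly or wholly at 0 in them, are given 5′ to 3′ on the strand of the gene, with Ets letters in capitals (on the opposite strand they read CTTCCT or CTTCCG, and neighbouring matches can overlap). Stab1 is at chr14:31168642-31168891, Stab2 at chr10:87007943-87008192, Clec4g at chr8:3720652-3720901 and Cd209b at chr8:3926842-3927091, all on the minus strand.
Stab1: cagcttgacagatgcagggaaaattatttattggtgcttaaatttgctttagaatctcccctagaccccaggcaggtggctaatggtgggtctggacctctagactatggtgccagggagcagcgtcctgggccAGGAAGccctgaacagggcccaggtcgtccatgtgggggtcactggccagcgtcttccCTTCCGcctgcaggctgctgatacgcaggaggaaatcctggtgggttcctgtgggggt
Stab2: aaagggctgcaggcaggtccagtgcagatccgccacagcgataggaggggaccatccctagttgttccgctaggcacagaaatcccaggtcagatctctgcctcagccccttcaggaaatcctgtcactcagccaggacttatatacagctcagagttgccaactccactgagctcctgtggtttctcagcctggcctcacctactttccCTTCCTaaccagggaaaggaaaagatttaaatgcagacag
Clec4g: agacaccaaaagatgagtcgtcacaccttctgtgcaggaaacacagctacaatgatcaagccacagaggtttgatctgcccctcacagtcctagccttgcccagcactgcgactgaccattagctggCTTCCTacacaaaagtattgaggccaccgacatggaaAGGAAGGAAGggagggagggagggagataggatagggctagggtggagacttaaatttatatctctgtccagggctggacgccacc
Cd209b: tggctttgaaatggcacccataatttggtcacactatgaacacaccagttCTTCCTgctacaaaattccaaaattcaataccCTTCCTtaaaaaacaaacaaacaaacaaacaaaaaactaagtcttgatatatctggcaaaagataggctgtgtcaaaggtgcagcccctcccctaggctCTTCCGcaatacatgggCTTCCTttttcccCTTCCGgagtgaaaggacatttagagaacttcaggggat
Stab1 and Stab2, shown first, held 2 and 1 of these Ets matches, and Clec4g and Cd209b held 3 and 5.

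Stab1 encodes stabilin-1, a large scavenger receptor of sinusoidal endothelium and of some macrophages, and lies on chromosome 14 from 31952199 to 31981827 on the minus strand of NCBIM37 (mm9). Its FPKM was 1979, 1682 and 1801 in LSECs, a mean of 1821 ± 149 (SD, n = 3). In Akt-liver ECs it was 729, 3563 and 3935, and in Akt-LECs 806, 1092 and 928. The LSEC libraries lay within the range of the Akt-liver ECs and above all 3 Akt-LECs. The LSEC level differed from that of Akt-liver ECs by -0.26 (SE 1.40) on the log2(FPKM + 1) scale, with an adjusted p of 0.922 by limma. With any 1 library omitted, that difference lay between -1.04 and 0.17, so its sign depended on single libraries. Against Akt-LECs the difference was 0.96 (SE 1.40, adjusted p of 0.647 by limma).

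Among the converted cells, Stab1 was lowest in RACVECs by group mean and highest in Akt-RACVECs, and Sox17-RACVECs overlapped both. RACVECs held 12.8, 92.3 and 2.5 FPKM, and Akt-RACVECs held 1143, 1148 and 1203. The Akt-RACVEC libraries were all above the RACVECs and were 62.8% to 66.1% of the LSEC mean. LSECs were above RACVECs by 6.78 (SE 1.40, adjusted p of 9.673e-04 by limma), while against Akt-RACVECs the difference was 0.64 (SE 1.40, adjusted p of 0.777). Sox17-RACVECs held 114, 1839 and 21.4 FPKM, a range that reached from RACVEC levels to LSEC levels. The LSEC difference from Sox17-RACVECs was 3.44 (SE 1.40) with an adjusted p of 0.0628 by limma. Without the library labelled Sox17-RACVEC 2 it was 5.16 with an adjusted p of 0.00506, the lowest over all alternatives, whose range reached 0.324. In MACs, Stab1 was at 0, 0.22 and 1.29 FPKM, and Akt-MACs held 3.70, 57.9 and 269. Ordered by group mean, Stab1 was highest in Akt-liver ECs, then LSECs, Akt-RACVECs, Akt-LECs, Sox17-RACVECs, Akt-MACs, RACVECs and MACs. In that order LSECs did not overlap Akt-RACVECs and Akt-RACVECs did not overlap Akt-LECs, and RACVECs did not overlap MACs, whereas Akt-liver ECs overlapped LSECs and the neighbours from Akt-LECs down to RACVECs overlapped in turn.

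Stab2 encodes stabilin-2, the hyaluronan clearance receptor of sinusoidal endothelium, and lies on chromosome 10 from 86303943 to 86470770 on the minus strand. Its FPKM was 2213, 2139.6 and 1863 in LSECs, a mean of 2072 ± 184 (SD, n = 3). Akt-liver ECs held 173, 54.4 and 58.3, and Akt-LECs held 17.9, 21.9 and 2.97. All Akt-liver EC libraries were above all Akt-LEC libraries and far below every LSEC library. LSECs exceeded Akt-liver ECs by 4.64 (SE 1.01, adjusted p of 0.00166 by limma) and Akt-LECs by 7.43 (SE 1.01, adjusted p of 1.771e-05), and the lowest LSEC library was 10.8 times the highest library of any other group. In Akt-RACVECs, Stab2 was at 64.8, 70.9 and 1.09 FPKM, so that 2 libraries lay in the Akt-liver EC range and the third did not. The LSEC difference from Akt-RACVECs was 6.59 (SE 1.01, adjusted p of 5.947e-05 by limma), and with any 1 library left out it was between 4.91 (without Akt-RACVEC 3) and 7.46 (without Akt-RACVEC 2). RACVECs and MACs were listed at 0 in every library, Akt-MACs held 0, 1.09 and 1.49, and Sox17-RACVECs held 0.96, 5.38 and 0.

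The stabilins thus stood at unlike levels in the same cells. In Akt-RACVECs the mean of Stab1 was 64.0% of its LSEC mean and that of Stab2 was 2.20%. In Akt-LECs these shares were 51.7% and 0.687%, and in Akt-liver ECs 151% and 4.59%. Over the 21 libraries other than LSECs, Stab1 and Stab2 on the log2 scale had a Pearson correlation of 0.775, a description over libraries that share groups and whose depth is unknown.

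Mrc1 encodes the mannose receptor, which takes up glycoproteins in sinusoidal endothelium and in macrophages, and lies on chromosome 2 from 14151041 to 14253684 on the plus strand. LSECs held 5135, 3485 and 3599 FPKM, a mean of 4073 ± 921 (SD, n = 3). Akt-liver ECs held 64.7, 8.66 and 5.63, and Akt-LECs held 126, 15.8 and 0.74. In both of these groups the first library was the highest, and every LSEC library was at least 13.4 times any library of another group. The LSEC difference was 7.96 (SE 1.16, adjusted p of 3.871e-05 by limma) from Akt-liver ECs and 8.02 (SE 1.16, adjusted p of 3.569e-05) from Akt-LECs. With any 1 library left out, the former was between 7.31 (without Akt-liver EC 3) and 8.97 (without Akt-liver EC 1), and the latter between 6.44 (without Akt-LEC 3) and 9.53 (without Akt-LEC 1). RACVECs held 2.10, 2.86 and 2.43 FPKM, Akt-RACVECs 0.99, 1.35 and 0, and Sox17-RACVECs 0.57, 0 and 0.35. These are all near the floor of the table, and no MAC library had Mrc1 above 0. Akt-MACs stood out with 12.3, 71.4 and 261 FPKM.

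Fcgr2b encodes the inhibitory receptor for IgG immune complexes and lies on chromosome 1 from 172890689 to 172906678 on the minus strand. LSECs held 13704, 10832 and 12077 FPKM, a mean of 12204 ± 1440.4 (SD, n = 3), rank 9 among all genes by LSEC mean. Akt-liver ECs held 418, 0 and 0, and Akt-LECs held 54.3, 0.47 and 0. In each of these groups 1 library carried nearly all of the signal, and both were the libraries with the high macrophage sums. The LSEC difference was 10.67 (SE 1.69, adjusted p of 9.485e-05 by limma) from Akt-liver ECs and 11.45 (SE 1.69, adjusted p of 4.517e-05) from Akt-LECs. Without Akt-liver EC 1 it was no longer against a group above 0, since both remaining libraries were listed at 0. The lowest LSEC library was 25.9 times the highest other library. Fcgr2b was at most 1.61 FPKM in any RACVEC, Akt-RACVEC, Sox17-RACVEC or MAC library, and at 26.3, 81.4 and 211 in Akt-MACs. Of its 2 RefSeq transcripts, NM_010187 made up 99.5% to 99.7% of the LSEC level. Fcgr2b and Fcgr3 are close in sequence, so the split of reads between them is uncertain.

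Clec4g encodes LSECtin, a C-type lectin of liver and lymph node sinusoidal endothelium, and lies on chromosome 8 from 3707064 to 3720651 on the minus strand. LSECs held 24439, 21133 and 31959 FPKM, a mean of 25844 ± 5548 (SD, n = 3), rank 3 among all genes. Akt-liver ECs held 6.53, 0 and 1.6 FPKM and Akt-LECs held 0, 5.5 and 0. The other 15 libraries were listed at 0. The lowest LSEC library was 3240 times the highest other library, the widest gap among the genes with a value outside LSECs. LSECs exceeded Akt-liver ECs by 13.21 (SE 0.62) and Akt-LECs by 13.74 (SE 0.62) on the log2(FPKM + 1) scale. These differences are given with no p, since the gene was tested because of its LSEC level. Against RACVECs, Akt-RACVECs, Sox17-RACVECs and MACs there is no fold to give.

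Cd209b, also known as SIGN-R1, encodes a mouse relative of the dendritic cell lectin DC-SIGN, found on sinusoidal endothelium and on macrophages of the spleen's marginal zone. It lies 197005 bases from Clec4g on chromosome 8, from 3917657 to 3926844 on the same strand. LSECs held 61.7, 51.5 and 92.2 FPKM, a mean of 68.4 ± 21.2 (SD, n = 3), and all other 21 libraries were listed at 0. It was the lowest of the 9 genes in LSECs, with rank 5436 by mean. No fold or p is given for it, since it entered the test through the LSECs and the other groups have no spread. NM_026972 made up 96.6%, 96.6% and 83.0% of the LSEC level, and NM_001037800 the rest. The Cd209 genes resemble one another, and reads may be split among them. Its relatives Cd209c, Cd209d and Cd209e were at 0 in all 24 libraries, and Cd209a was above 0 in LSECs alone, at 6.47, 3.94 and 5.57 FPKM. Cd209f differed: it was at 83.8, 71.7 and 15 FPKM in LSECs but at 11.8, 1019 and 963 in Akt-MACs.

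Oit3 encodes a secreted protein with a zona pellucida domain that is found mainly in liver, and lies on chromosome 10 from 58885706 to 58904526 on the minus strand. LSECs held 7139.5, 6139 and 4556 FPKM, a mean of 5945 ± 1303 (SD, n = 3). Akt-liver ECs held 686, 0.90 and 3.39 FPKM, and Akt-LECs held 2.78, 1.24 and 4.33. The first Akt-liver EC library was alone among the cultured libraries, and the next highest was a Sox17-RACVEC library at 31.2. LSECs exceeded Akt-liver ECs by 8.35 (SE 1.37, adjusted p of 1.419e-04 by limma) and Akt-LECs by 10.68 (SE 1.37, adjusted p of 9.508e-06). Without Akt-liver EC 1 the first difference was 10.98, and without Akt-liver EC 2 it was 6.73. RACVECs held 7.31, 8.17 and 7.08 FPKM, Akt-RACVECs 2.57, 9.24 and 4.06, and MACs 1.86, 0 and 0.61. The RACVEC libraries were all above the MAC libraries, with a difference of 2.35 (SE 1.37) that was not called (adjusted p of 0.356 by limma).

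Gata4 encodes a zinc finger transcription factor needed for sinusoidal differentiation, and lies on chromosome 14 from 63817759 to 63890529 on the minus strand. LSECs held 426, 531 and 543 FPKM, a mean of 499.7 ± 64.3 (SD, n = 3). Akt-liver ECs held 214, 11.9 and 9.20 FPKM and Akt-LECs held 13.1, 8.91 and 2.24. All LSEC libraries were above both groups. The difference from Akt-liver ECs was 4.03 (SE 1.59) and was not called, with an adjusted p of 0.0571 by limma. Without Akt-liver EC 1 it was 5.44 and called, at an adjusted p of 0.0193, and over all alternatives that p was between 0.00806 and 0.204. LSECs exceeded Akt-LECs by 6.02 (SE 1.59, adjusted p of 0.00717 by limma). Akt-MACs held 0, 24.6 and 340.0 FPKM, the last of which was the highest outside LSECs. Gata4 was listed at 0 in every RACVEC library, was at 6.43, 0 and 16.0 in Akt-RACVECs, and reached 12.2 in 1 of 3 Sox17-RACVEC libraries.

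Maf encodes the basic leucine zipper factor c-Maf and lies on chromosome 8 from 118206842 to 118231694 on the minus strand. LSECs held 929, 1174 and 958 FPKM, a mean of 1021 ± 134 (SD, n = 3). It was also present in the amniotic cells. MACs held 114, 145 and 111 FPKM, Akt-MACs 99.3, 336 and 683, and Akt-liver ECs 87.5, 384 and 142. The LSEC libraries were above all of these, the lowest by 1.36 times. The difference was not called against Akt-liver ECs, at 2.58 (SE 1.55, adjusted p of 0.210 by limma), nor against MACs, at 3.04 (SE 1.55, adjusted p of 0.126). Both were called with only the groups compared and by the criterion of the methods. Over the alternatives the adjusted p by limma was between 0.0216 and 0.400 against Akt-liver ECs, and between 1.68e-04 and 0.295 against MACs. Akt-LECs held 107, 286 and 0 FPKM, and LSECs were called higher by 5.02 (SE 1.55, adjusted p of 0.0183 by limma). That call was lost without Akt-LEC 3, at 2.53 with an adjusted p of 0.128, and without LSEC 2, at 4.91 with an adjusted p of 0.0506, and the p ranged from 0.00384 to 0.168 over the alternatives. RACVECs held 52.9, 8.67 and 11.6 FPKM, all below the MACs, and Akt-RACVECs held 2.89, 55.5 and 0. Sox17-RACVECs held 0.85, 0 and 0 FPKM, all below the RACVECs. Neither of these lower levels was called (adjusted p of 0.344 for RACVECs against MACs and of 0.634 for Sox17-RACVECs against RACVECs, by limma).

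LSECs were called higher than Akt-LECs in 8 of the 9 genes (12.8% of all genes), than RACVECs in 9 (15.2%), than Akt-RACVECs in 8 (14.1%), than Sox17-RACVECs in 8 (15.5%) and than MACs in 8 (16.0%). In each of these comparisons 0 of the 9 were called lower, where the shares of all genes were 12.1%, 14.7%, 13.2%, 12.9% and 16.2%. Without Cd209b and Clec4g, the counts called higher were 6 of 7 against Akt-LECs (10.5% of the genes that reach the filter outside LSECs), 7 against RACVECs (12.9%), and 6 each against Akt-RACVECs (11.7%), Sox17-RACVECs (13.2%) and MACs (13.7%). All of them share the same 3 LSEC libraries and are therefore not independent of one another. The gene not called was Stab1 against Akt-LECs, Akt-RACVECs and Sox17-RACVECs, and Maf against MACs. The median difference over genes above 0 in the second group was 7.72 against Akt-LECs (8 genes), 7.40 against Akt-RACVECs (7 genes) and 9.49 against Sox17-RACVECs (6 genes), with medians over all genes tested of -0.0452, -0.0503 and 0. Clec4g, tested through the LSECs alone, is part of the median against Akt-LECs.

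**Figure D2:**
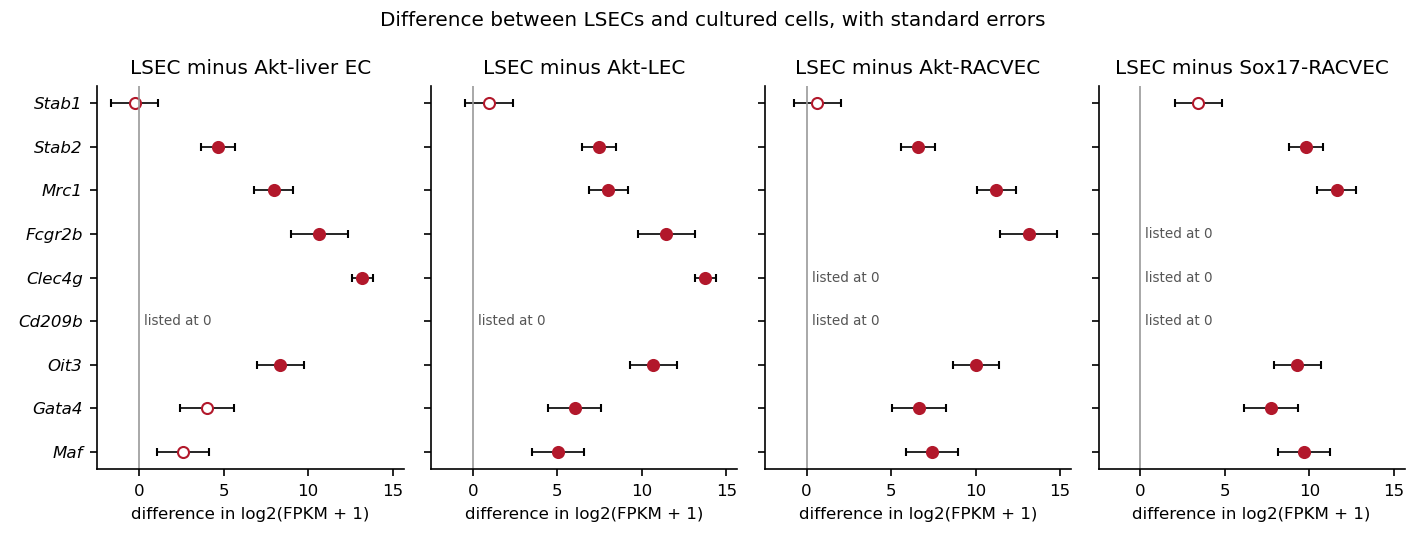
Difference between LSECs and 4 cultured groups for each of the 9 genes, in log2(FPKM + 1) on the horizontal axis, with whiskers of 1 SE from limma. Filled points were called higher in LSECs and open points were not called. Where the second group was listed at 0 in all libraries, no fold is drawn. Stab1 is open in all 4 panels, from -0.26 against Akt-liver ECs to 3.44 against Sox17-RACVECs, whereas Stab2, Mrc1 and Oit3 are filled in all 4.

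The genes did not keep 1 common share of their LSEC level in the cultured liver cells. In Akt-liver EC 1, Gata4 was at 42.9% and Stab1 at 40.0% of the LSEC mean. In the same library Oit3 was at 11.54%, Maf at 8.57%, Stab2 at 8.33%, Fcgr2b at 3.42%, Mrc1 at 1.59% and Clec4g at 0.0253%. This library is the one with a macrophage sum of 1375, in which 11 of the 12 macrophage and Kupffer cell genes were above 0, all but Timd4. Lyz2 was at 777 FPKM, C1qb at 133, C1qc at 112, Cd5l at 94.7, C1qa at 94.5, Marco at 58.2 and Csf1r at 55.9, and the Kupffer cell lectin Clec4f was at 4.75, against 2965 to 4942 in LSECs. The part of these transcripts in the levels of the 9 genes was not tested. In Akt-liver EC 2 and 3, Stab1 was at 196% and 216% of the LSEC mean, Stab2 at 2.62% and 2.82%, and Fcgr2b at 0. The macrophage sums of these libraries were 2.19 and 0, with 2 and 0 of the 12 genes above 0.

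**Figure D3:**
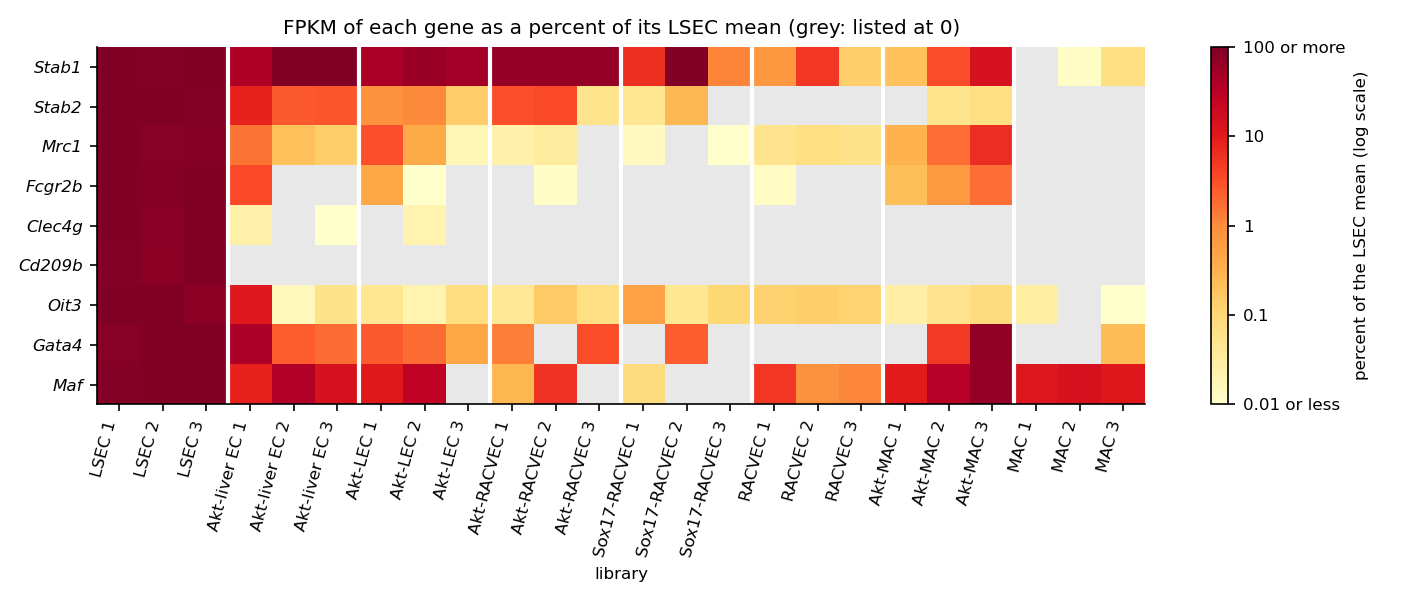
FPKM of each gene (rows) in each library (columns) as a percent of its LSEC mean, on a log colour scale from 0.01% or less to 100% or more, with grey where the gene is listed at 0. Stab1 stays dark across Akt-liver ECs, Akt-LECs and Akt-RACVECs, Maf is spread over most groups, and Clec4g and Cd209b are grey nearly everywhere outside LSECs.

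Organ of origin was addressed by setting Akt-liver ECs against Akt-LECs. Of the 9 genes, 0 were called in either direction by limma, where 0.0134% of all genes were called higher and 0.0% lower. At an unadjusted p below 0.05 and a difference past 1 or -1, 1 of the 9 was higher (1.67% of all genes) and 0 lower (1.12%). This was Stab2, with a difference of 2.79 (SE 1.01) and an adjusted p of 1.0 by limma, and it was also the 1 gene whose 3 liver libraries lay above all 3 lung libraries, against 4.41% of all genes. The other genes overlapped between the groups or, for Cd209b, were at 0 in both.

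Ets conversion was read from RACVECs against MACs. By the methods, amniotic cells were cultured in AmnioMAX before conversion and in endothelial medium with SB431542 during it. The Ets factors, the medium and the time in culture therefore cannot be told apart here. None of the 9 genes was called by limma, 0 higher (1.36% of all genes) and 0 lower (1.35%). By the unadjusted p, 1 was higher (5.45% of all genes) and 0 were lower (7.15%). This was Stab1, all of whose RACVEC libraries were above the MAC libraries, with a difference of 3.55 (SE 1.40) and an adjusted p of 0.169 by limma.

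Akt was then added to the converted cells. In Akt-RACVECs against RACVECs, 0 of the 9 genes were called higher (0.221% of all genes) and 0 lower (0.0401%), with 2 higher (4.79% of all genes) and 0 lower (5.24%) by the unadjusted p. These 2 were the stabilins. For Stab1 the difference was 6.14 (SE 1.40) with an adjusted p of 0.0556 by limma, and for Stab2, listed at 0 in RACVECs, the adjusted p was the same. All 3 Akt-RACVEC libraries were above all RACVEC libraries for both genes, against 10.6% of all genes. Stab1 was called without RACVEC 2, at 7.39 with an adjusted p of 0.0291 (range over the alternatives from 0.0291 to 0.312). Stab2 was called without Akt-RACVEC 3, at an adjusted p of 7.932e-04 (range from 7.932e-04 to 0.411). In the same comparison, 2 of 10 pan-endothelial genes were called higher, Pecam1 by 6.26 and Erg by 6.73. Erg was itself a transferred Ets factor, so it is not a plain marker here. By qPCR, the paper found no change in Ets factor transcripts with Akt. Of 14 other sinusoidal genes, 1 was called higher. It was Lyve1, the lymphatic and sinusoidal hyaluronan receptor, by 6.58 (SE 1.14, adjusted p of 0.0254 by limma). Pecam1, Erg and Lyve1 are named after their values were seen. Lyve1 was at 978, 810.2 and 440.3 FPKM in Akt-RACVECs and at 16.0, 1.62 and 7.97 in RACVECs.

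Sox17 was the other factor added. In Sox17-RACVECs against RACVECs, 0 of the 9 genes were called higher (0.0% of all genes) and 0 lower (0.00668%) by limma. By the unadjusted p, which took 1.32% of all genes as higher and 3.38% as lower, 1 was higher, Stab1, at 3.34 (SE 1.40) with an adjusted p of 0.674, and 1 was lower, Maf, at -3.93 (SE 1.55) with an adjusted p of 0.634. The Stab1 difference rested on the library labelled Sox17-RACVEC 2, at 1839 FPKM, in which Lyve1 was likewise at 1363 FPKM against 11.6 and 18.7 in the others of the group.

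Akt without the Ets factors was read in the amniotic cells. In Akt-MACs against MACs, 1 of the 9 genes was called higher (2.59% of all genes) and 0 lower (0.214%). The called gene was Mrc1, listed at 0 in all MACs, with an adjusted p of 0.0101 by limma. Without Akt-MAC 2 that p was 0.0576 and without Akt-MAC 3 it was 0.0535, and over all alternatives it was between 7.74e-04 and 0.569. Fcgr2b, also at 0 in MACs, had an adjusted p of 0.0503, and Stab1 was higher by 4.90 (SE 1.40) with an adjusted p of 0.0676, neither called. For Mrc1, Fcgr2b, Stab1 and Maf, and for Gata4 alike, the third Akt-MAC library was the highest of the group and the first the lowest. Stab2 and Oit3, at most 1.49 and 4.93 FPKM in Akt-MACs, had that order too. The share of all genes with this order was not computed. The macrophage sum had the same order, 1019.7, 16029 and 48587, and 9 of the 12 macrophage genes were called higher in Akt-MACs. Kupffer cell genes were uneven in it: Cd5l reached 9098 FPKM and Marco 5714 in Akt-MAC 3, while Clec4f was at 0 in all 3 libraries and Timd4 was at most 1.68. The part of these macrophage transcripts in the levels of Mrc1 and Fcgr2b was not tested.

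The difference between cells with and without Akt was compared between converted and unconverted cells as an interaction. By limma, 0 of the 9 genes were called higher (0.00668% of all genes) and 0 lower (0.0936%), with 1 higher (3.09% of all genes) and 2 lower (7.04%) by the unadjusted p. Mrc1 had a difference of -7.02 (SE 1.63, adjusted p of 0.102), Fcgr2b of -6.32 (SE 2.38, adjusted p of 0.275) and Stab2 of 3.63 (SE 1.43, adjusted p of 0.296). The 12 macrophage genes had a median of -7.99 in this interaction, with 0 called. Their sum was between 1019.7 and 48587 in Akt-MACs and at most 14.7 in MACs. Akt and the macrophage transcripts of Akt-MACs cannot be told apart here.

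Within LSECs the macrophage sum was lowest and the hepatocyte sum highest in the third library. Mrc1 was 5135 FPKM in the first LSEC library, with a macrophage sum of 29725. It was 3485 in the second, with a sum of 26282.5, and 3599 in the third, with a sum of 17845. Clec4g and Cd209b were highest in the third. Divided by the macrophage sum of the same library, Mrc1 in an LSEC library was 11.0 to 45.3 times that in an Akt-MAC library, and Fcgr2b was 16.0 to 156 times. The sum was made up of unlike genes in these groups. Marco was at 69.1, 2253 and 5714 FPKM in Akt-MACs and at 88.5, 77.4 and 58.7 in LSECs. These ratios therefore do not tell which cells held Mrc1 and Fcgr2b. The macrophage genes in LSECs were called higher than in Akt-liver ECs in 12 of 12 and the hepatocyte genes in 9 of 9, against 12.9% of all genes. Timd4, Ahsg, Cyp2e1 and Tat among them were listed at 0 in all Akt-liver ECs. These counts include any gene that reached the filter through LSECs alone, whose call was fixed by it. The part of the macrophage and hepatocyte genes in the levels of the 9 genes was not tested.

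**Figure D4:**
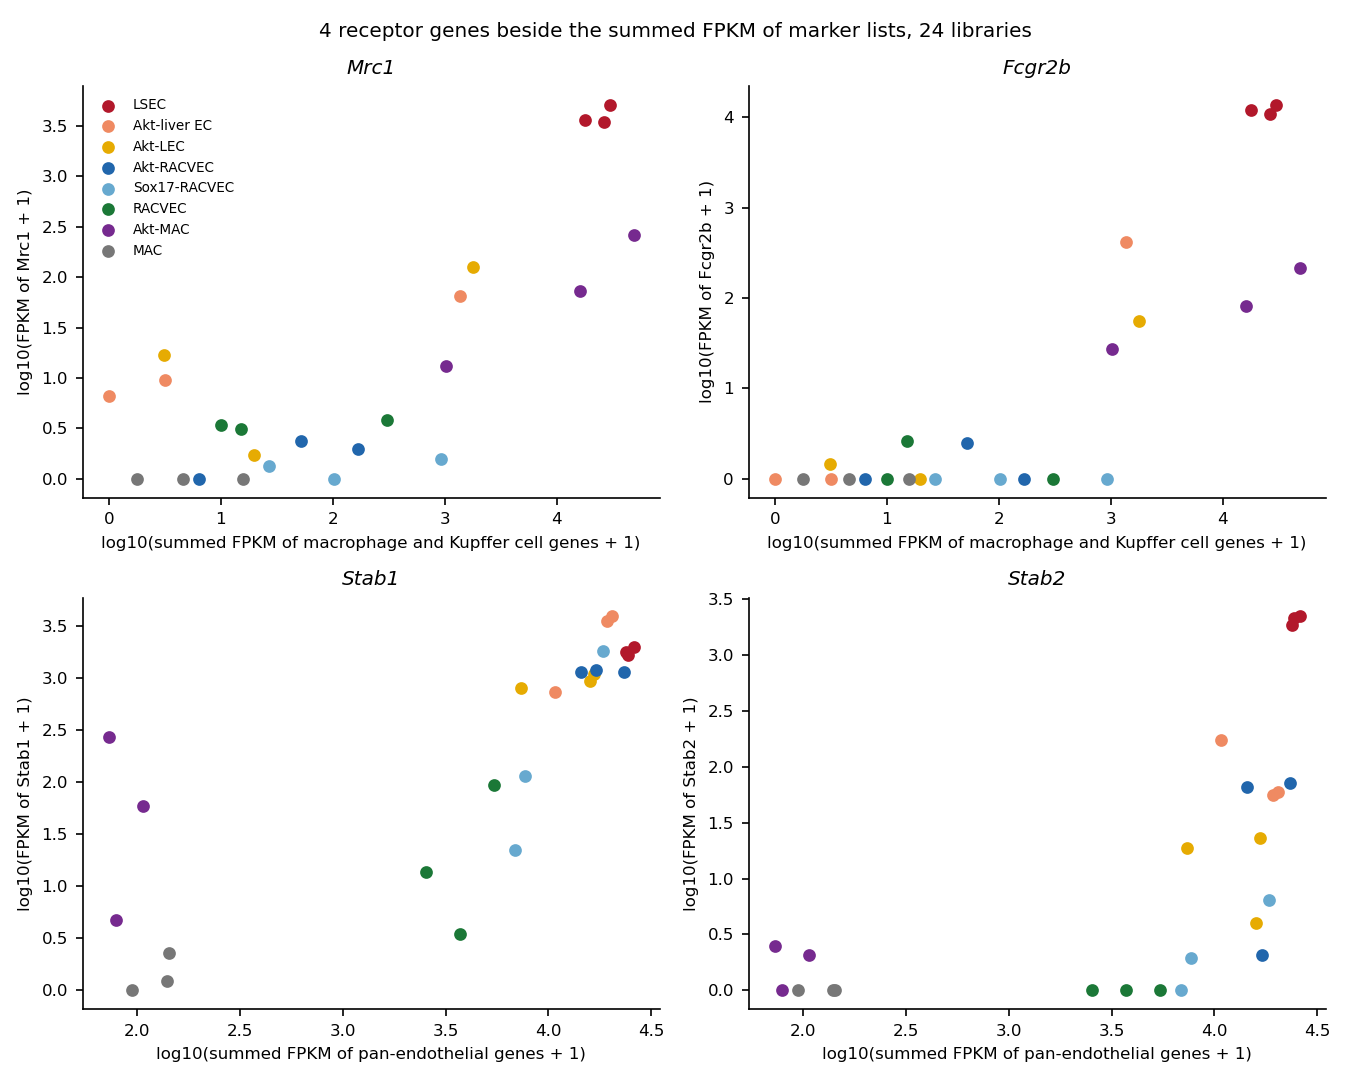
FPKM of 4 receptor genes against the summed FPKM of a marker list in each of the 24 libraries, both axes as log10(value + 1), with colours for the 8 groups. In the upper panels Mrc1 and Fcgr2b are set against macrophage and Kupffer cell genes, and LSECs lie above Akt-MACs of like macrophage sum. The genes that make up that sum differ in level between LSECs and Akt-MACs. In the lower panels Stab1 and Stab2 are set against pan-endothelial genes, and Stab2 is lower in every cultured library than in LSECs, while Stab1 is higher than in LSECs in 2 Akt-liver EC libraries and within the LSEC range in 1 Sox17-RACVEC library.

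Related genes were read in the same comparison of LSECs with Akt-liver ECs, in which 12.9% of all genes were called higher and 14.1% lower. Counts were not split by whether a gene reached the filter outside LSECs. Where a gene reached it through LSECs alone, its call was fixed, as for Cd163, at most 6.67 FPKM in any other library. Of 14 other genes of sinusoidal endothelium, 10 were called higher and 0 lower, with a median difference of 4.57 on the log2(FPKM + 1) scale. The largest were the nuclease gene Dnase1l3 at 11.21 (SE 0.77, adjusted p of 1.794e-09 by limma), Plxnc1 at 8.86, Aass at 8.19, the platelet lectin receptor gene Clec1b at 7.99 and Adam23 at 7.96. The 4 not called were Lyve1, Flt4, Ctsl and Cd36, named after their values were seen. Lyve1 was at 2047, 1452 and 2164 FPKM in LSECs and at 1725, 5333 and 7229 in Akt-liver ECs, overlapping as Stab1 did. Of 15 other scavenger receptors, 5 were called higher and 1 lower, with a median of 1.03. Among them were the macrophage receptors Cd163 at 7.06, Msr1 at 7.00 and Marco at 4.26, with Cxcl16 at 3.50, and the 1 lower was Colec12 at -3.40 (SE 0.83, adjusted p of 0.00411 by limma).

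Of 20 other C-type lectins tested (25 listed), 11 were called higher and 1 lower, with a median of 3.66. They included Clec4f at 11.10, Clec1b at 7.99, Clec12a at 6.43 and Clec14a at 5.40, and Cd209f, at 0 in Akt-liver ECs. Clec4f is a Kupffer cell gene, and Clec12a is known from myeloid cells. All 6 other Fc receptor genes tested were called higher, with a median of 5.92, among them Fcgr3 at 7.81, Fcgr4 at 7.28, Fcgr1 at 6.06 and the shared signalling chain Fcer1g at 5.79, with Pigr at 0 in Akt-liver ECs. The activating receptors Fcgr1, Fcgr3 and Fcgr4 and the chain Fcer1g are also myeloid genes. Of the 6 Fc receptor genes tested, 4 were called higher in Akt-MACs against MACs as well. Of the C-type lectins, 7 were called higher and 0 lower in that comparison. Of the other scavenger receptors, 3 were higher and 1 lower, where 2.59% of all genes were called higher and 0.214% lower.

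Of 9 other Gata and Maf factors tested (13 listed), 0 were called higher in LSECs and 4 lower, with a median of -0.91. By the criterion of the methods these counts were 1 and 1. The 4 were Maff at -5.35 (SE 1.07, adjusted p of 8.518e-04 by limma), Gata6 at -4.20, Gata3 at -3.69 and the GATA cofactor gene Zfpm2 at -2.82. Gata6 was at 0, 0.81 and 2.30 FPKM in LSECs and at 40.8, 14.9 and 55.2 in Akt-liver ECs, so Gata4 was the higher of the 2 in every LSEC library and the lower of them in Akt-liver EC 2 and 3. Of 12 genes of continuous endothelium, 1 was called higher, Ly6a at 5.50, and 3 lower, Apln at -6.76, Cd34 at -3.20 and the caveolin gene Cav1 at -2.78, with a median of -1.21. Of the 10 pan-endothelial genes, 2 were called higher and 0 lower, with a median of 0.48. Beside 12.9% of all genes called higher and 14.1% lower, counts of 1 or 2 in a list are not read as results about it.

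**Figure D5:**
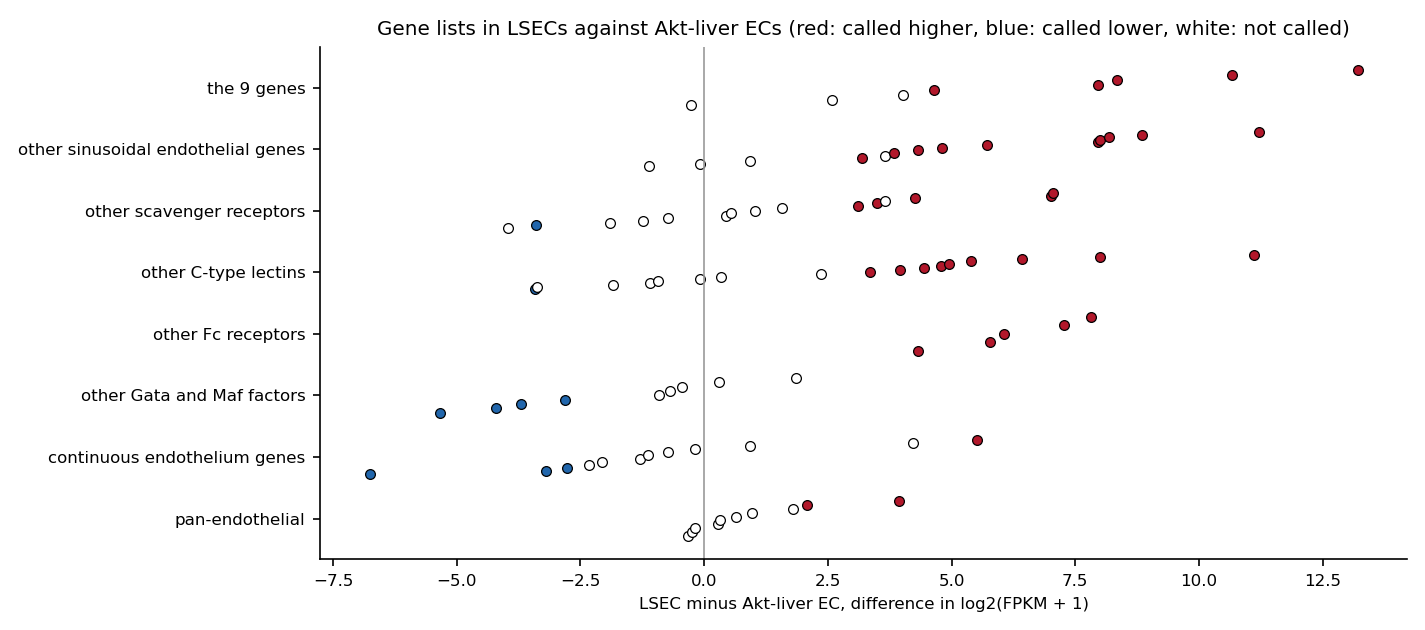
Difference between LSECs and Akt-liver ECs in log2(FPKM + 1) for the genes of each list, 1 point per gene, with red for genes called higher in LSECs, blue for genes called lower and white for genes not called. Genes listed at 0 in all Akt-liver EC libraries are left out. The 9 genes, the other sinusoidal genes and the Fc receptors lie mostly to the right of 0, and the Gata and Maf factors mostly to its left.

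The genes most like the list were sought over all 24 libraries, by Pearson correlation of log2(FPKM + 1) with the mean z-score of the 9 genes. The 8 highest were Cnr2 at 0.978, Clec1b at 0.956, H2-Aa at 0.955, Klhl36 at 0.954, Lilra5 at 0.949, Vsig4 at 0.949, P2ry13 at 0.948 and C5ar2 at 0.948. Cnr2, the cannabinoid receptor 2 gene, had a mean of 353 ± 64.1 (SD, n = 3) FPKM in LSECs and at most 20.2 elsewhere. The libraries share groups, and a gene that is high in LSECs alone scores high by that.

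Over the 21 libraries without LSECs the genes went apart. The closest to Stab1 were Elmo1 at 0.963, Ccdc88c at 0.923 and Tal1 at 0.917, and to Stab2 they were Gm14207 at 0.902, Psg22 at 0.887 and Ada at 0.885. Closest to Mrc1 were Msr1 at 0.964 and Fcer1g at 0.915, followed by a transcript without a symbol, and closest to Fcgr2b were Mmp12 at 0.971, Clec4n at 0.952 and C1qa at 0.949. For Oit3 the closest were Cdh15 at 0.861, Dnase1l3 at 0.844 and Alb at 0.831, for Gata4 Cmtm6 at 0.869, Arrb2 at 0.859 and Fam78a at 0.847, and for Maf Spats2l at 0.943, Atp9a at 0.913 and Nphp4 at 0.903. Among the 9 genes themselves, Mrc1 and Fcgr2b had the highest correlation without LSECs, 0.875, and Stab1 and Fcgr2b had 0.085. These correlations describe libraries that share groups and are given with no test.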

How the data were processed

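The authors sequenced paired reads of 51 bp from polyA libraries, mapped them with TopHat to mm9 and deposited Cufflinks FPKM per RefSeq transcript, normalised to the upper quartile and corrected for sequence bias. Versions are not given in the sources used here. Each library held 27583 transcripts. Of these, 26934 were joined to current mouse symbols and summed, and 649 without a symbol were kept apart, which gave 22282 genes. Depth is unknown, so precision is that between 3 libraries, and 0 pairs of libraries were identical. Group medians over all genes were shifted by between -0.114 and 0.0678 (log2), LSECs by -0.103.

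A single limma fit (version 3.58.1, R 4.3.3) of log2(FPKM + 1) over 8 groups, with moderated variances and a trend, gave two-sided p-values, adjusted by Benjamini-Hochberg over genes whose mean FPKM reached 1. The fit was also run on simulated data to check the code, and no result given here rests on that run. The files held FPKM, so no count model was used. Python 3.11.15 was used for sums and figures. The 9 genes and all lists were chosen with earlier results of these data known. All 9 genes are named, and from each list up to 5 called genes with the largest difference between LSECs and Akt-liver ECs. Alternatives were pseudocounts of 0.1 and 10, no filter, a mean of at least 10, scaling by the median shift, transcripts kept apart, a replicate block, fits of only the groups compared, the criterion of the methods, and each library left out. Positions are from GENCODE M1 on NCBIM37. Cd68, Clec7a and Hbb-b1 matched no symbol and were not used here.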

Additional observations from a re-analysis of the deposited data

Results flagged for a closer look

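The Akt difference in Mrc1 was set against itself between converted and unconverted cells. The interaction was -7.02 (SE 1.63) on the log2(FPKM + 1) scale with an unadjusted p of 4.085e-04 by limma, and an adjusted p of 0.102 over all genes, so it failed the correction. Mrc1 was at 12.3, 71.4 and 261 FPKM in Akt-MACs and at 0 in all 3 MACs, and at 0.99, 1.35 and 0 in Akt-RACVECs against 2.10, 2.86 and 2.43 in RACVECs. The macrophage sum was 1019.7, 16029 and 48587 in the Akt-MAC libraries in the same order, 9 of 12 macrophage genes were called higher in Akt-MACs than in MACs, and their part in the Mrc1 values was not tested. Over the alternatives the adjusted p was between 0.00628 and 0.233.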

How the results depend on the processing

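In no pair of groups was the correlation of deviations over 0.1 for all 3 numbers. It was 0.571, 0.366 and -0.0499 for Akt-liver ECs with Akt-LECs, and 0.206, 0.0516 and -0.0426 for RACVECs with Akt-RACVECs. With 3 libraries a group this does not exclude that libraries of the same number share an isolate. Whether the replicate numbers pair libraries is not known, and the main fit used no pairing. Counts of members called are followed by those of all genes in brackets. With the replicate block in the fit of all groups, Akt-RACVECs against RACVECs had 2 members called higher (98) instead of 0 (33), and no other count of members differed. In that comparison the count was 1 (30) with a pseudocount of 0.1 and 1 (76) with a pseudocount of 10, 2 (69) with a mean FPKM of at least 10, 1 (245) by the criterion of the methods, and 0 to 1 (4 to 56) when a library was left out. In Akt-MACs against MACs, where 1 was called (388), the count was 3 (328) with a pseudocount of 0.1, 0 (3) with only the groups compared, 0 (123) by the criterion of the methods, and 0 to 4 when a library was left out, 4 (679) without Akt-MAC 1 and 0 without Akt-MAC 2 (66) or Akt-MAC 3 (183). In RACVECs against MACs, with 0 higher (203) and 0 lower (202), it was 1 higher (30) with only the groups compared, and 2 higher (214) and 1 lower (221) by the criterion of the methods. In Sox17-RACVECs against RACVECs that criterion gave 1 lower (101). The interaction had 1 lower (27) with a pseudocount of 0.1, and 0 to 1 in either direction when a library was left out, 1 higher (5) without Akt-RACVEC 3 and 1 lower (391) without Akt-MAC 1. The fit of only the groups compared with a replicate block, chosen after seeing the data, gave 0 (0) in Akt-MACs against MACs.

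Between LSECs and other groups, the count of members moved by less than 1.5 times under each alternative. Of 858 recomputed differences of single genes, 836 kept their direction and call, 12 became called, 8 lost the call and 2 turned. Both measures include Clec4g and Cd209b, whose calls were fixed by the filter and stayed the same under every alternative. Those that became called were of Gata4, Maf and Stab1. The 2 that turned were Stab1 against Akt-liver ECs, at 0.101 without Akt-liver EC 2 and 0.172 without Akt-liver EC 3, in a range from -1.04 to 0.172. The calls lost were Maf against Akt-LECs under 4 alternatives, Gata4 against Akt-LECs with a pseudocount of 0.1, and, in the added fit with a replicate block of only the groups compared, Fcgr2b and Oit3 against Akt-liver ECs (adjusted p of 0.0539 and 0.0672) and Stab2 against Akt-RACVECs (0.0578). Cd209b did not reach a mean FPKM of 10 and drops out under that filter. Of the related lists between LSECs and Akt-liver ECs, the Gata and Maf factors called lower went from 4 to 1 by the criterion of the methods, and those called higher from 0 to 1 by it and with only the groups compared, with or without the block. Genes of continuous endothelium called lower went from 3 to 5 with only the groups compared and to 1 by that criterion, and those called higher from 1 to 2 under 3 alternatives. C-type lectins and scavenger receptors called lower, 1 each, were 0 to 2 over the alternatives, the lectins 0 without Akt-liver EC 1 and 2 without Akt-liver EC 2 or LSEC 3. The causes were not tested. With 3 libraries and values near 0 in most cultured groups, precision is limited by the spread between libraries, and no counting error can be given.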

Other observations

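By Spearman correlation with the mean z-score of the 9 genes over the 24 libraries, the closest gene was Irf8, an interferon regulatory factor gene of myeloid cells, at 0.939, followed by Fam78a at 0.914 and Frmd4b at 0.909, and Cnr2 was at 0.887. Irf8 had a mean of 171 ± 8.25 (SD, n = 3) FPKM in LSECs and reached 149 in a library of another group. These are descriptions over libraries that share groups.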
